A study of Homo sapiens with 6 samples.

Results

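The genes described here were 37 members of the NRF2 and antioxidant defense system of human cells, chosen by gene symbol. They matched 38 rows of a table of 58735 genes, because the symbol SOD2 stood on 2 rows. RNA-Seq counts came from 6 libraries of MCF10A, a nonmalignant human breast epithelial line that was kept in horse serum, insulin, EGF, cholera toxin and hydrocortisone. Cells of the siControl group (3 libraries) had received a nontargeting siRNA pool, and cells of the siDAB2IP group (3 libraries) an siRNA reagent against DAB2IP, a Ras GTPase-activating protein. Coordinates are those of hg38, as in the table. Total RNA was taken 48 hours after transfection in both groups. The comparison was made once, in 1 cell line and with 1 reagent against the gene, and the labels do not say whether the replicates were separate cultures, so that p-values measure only the spread between these samples. The question was which genes of this defense system changed in level when DAB2IP was depleted.

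NRF2, encoded by NFE2L2, is a transcription factor that KEAP1 holds in the cytoplasm and delivers to a ubiquitin ligase for degradation. Oxidants and electrophiles modify KEAP1, NRF2 accumulates, and with a small MAF protein it binds the antioxidant response element in front of genes for glutathione synthesis, thioredoxin reduction, NADPH supply, heme breakdown, aldehyde reduction and drug export. NRF2 is thus controlled largely at the level of its protein, which RNA-Seq does not measure. Superoxide dismutases, catalase, glutathione peroxidases and peroxiredoxins remove the oxidants themselves, and several of them answer to other factors as well.

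The core letters of the antioxidant response element, TGACNNNGC, were searched on both strands in the 250 bases before each RefSeq gene start (GRCh38.p14). Promoter windows were matched for 27 of the 37 members. The letters stood in 7 of 39 windows of these members, against 10.9% of 35116 windows of all genes, and belonged to GCLM, GPX2, KEAP1, ME1, PGD and TXNRD1. The κB motif stood in none of the 39 windows and in 9.96% of all windows. A match is a description of the sequence and not a measured binding site. Bases farther upstream and within the genes were not searched. A window without a match therefore does not show that its gene lacks the element or the motif. HMOX1, GSR, GSS, SLC7A11, FTH1, AKR1B10, ABCC3, SOD1, PRDX1 and PRDX6 had no matched window. KEAP1 and PGD, which hold the letters, had log2 fold changes of 0.04 and 0.07 in siDAB2IP over siControl (adjusted p = 0.841 and 0.731, edgeR). GPX2, which holds them too, was too low to test. Whether the letters go with a change in level was not tested. The windows of GCLM, ME1 and TXNRD1 are shown because these genes bear on the results below. Each runs 5′ to 3′ on the strand of its gene, ends at the base before the gene start, and has the element in capitals.
GCLM, minus strand, chr1:93909431-93909680: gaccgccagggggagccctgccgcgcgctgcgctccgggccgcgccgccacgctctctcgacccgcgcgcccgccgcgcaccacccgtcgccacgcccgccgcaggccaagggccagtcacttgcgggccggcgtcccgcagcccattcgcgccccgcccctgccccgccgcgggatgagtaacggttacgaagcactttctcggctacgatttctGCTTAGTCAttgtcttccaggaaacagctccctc
ME1, minus strand, chr6:83431052-83431301: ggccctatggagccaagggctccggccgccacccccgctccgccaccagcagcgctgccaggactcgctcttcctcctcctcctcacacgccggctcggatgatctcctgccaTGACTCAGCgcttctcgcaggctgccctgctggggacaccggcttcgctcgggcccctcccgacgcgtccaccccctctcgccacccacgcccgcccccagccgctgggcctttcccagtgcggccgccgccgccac
TXNRD1, plus strand, first start, chr12:104215529-104215778: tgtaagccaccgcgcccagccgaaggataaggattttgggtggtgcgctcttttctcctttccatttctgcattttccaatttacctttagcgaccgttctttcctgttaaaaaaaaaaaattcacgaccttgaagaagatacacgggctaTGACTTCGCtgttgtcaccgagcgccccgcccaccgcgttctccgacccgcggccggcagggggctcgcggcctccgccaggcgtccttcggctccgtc
TXNRD1, plus strand, internal start, chr12:104286782-104287031: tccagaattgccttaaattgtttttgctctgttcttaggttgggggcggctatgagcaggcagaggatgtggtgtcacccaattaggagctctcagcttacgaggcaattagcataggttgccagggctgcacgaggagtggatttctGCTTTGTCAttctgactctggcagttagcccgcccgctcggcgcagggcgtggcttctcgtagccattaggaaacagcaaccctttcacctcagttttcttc
Read on the strand that starts with TGAC, the elements were TGACTAAGC in GCLM, TGACTCAGC in ME1, and TGACTTCGC and TGACAAAGC in TXNRD1. The element ended 25 bases before the start of GCLM, 128 bases before that of ME1, and 90 and 93 bases before those of TXNRD1.

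The libraries held between 16353783 and 21916062 counts. Levels are given as CPM, a gene's counts relative to its library's total with TMM scaling, in which 3 counts corresponded to 0.137 to 0.183 CPM before scaling. DAB2IP itself (chromosome 9) fell from 91.4 ± 13.1 CPM (SD, n = 3) to 25.1 ± 2.57 CPM (n = 3), a log2 fold change of -1.86 ± 0.13 (SE, adjusted p = 9.71e-05, edgeR quasi-likelihood test). Of 7 markers of basal mammary epithelium, KRT5, KRT14 and KRT17 fell, LAMB3 rose, and EGFR and ITGB4 were not called. TP63 was at 59.1 and 39.9 CPM. It was called lower in 6 of 17 fits, among them that with the replicate block described below, and not in the main edgeR fit. The basal list summed to 9004 to 11098 CPM in siControl and 6819 to 8163 CPM in siDAB2IP. Of 4 luminal markers, which summed to 20.7 to 27.2 CPM and 22.3 to 27.3 CPM, FOXA1 rose (4.63 to 9.65 CPM). GATA3 was at 20.0 and 14.6 CPM. It was called lower in 4 of 17 fits, among them DESeq2 and that with the block, and not in the main fit. ESR1 was at 0.249 and 0.488 CPM and PGR at 0. The epithelial markers CDH1 and EPCAM summed to 337 to 404 CPM and 278 to 424 CPM without a call. Of 6 markers of other cell types, which summed to 29.1 to 32.9 CPM and 37.7 to 45.8 CPM, COL1A1 rose (15.3 to 26.3 CPM). PECAM1 was at 8.58 and 5.31 CPM. It was called lower in 3 of 15 fits, among them that with the block, and not in the main fit. PTPRC was at 0 in 5 of 6 libraries and COL1A2 at 0 to 0.174 CPM. The part of these marker changes in the results below was not tested. Replicate 3 of siDAB2IP was the highest or lowest of its group for 79.3% of all genes tested, against 55.4% to 73.5% for the other 5 libraries. It was the lowest siDAB2IP library for 26 of the 35 members tested (74.3%), against 42.1% of all genes tested. Replicate 3 of siControl was the lowest of its group for 22 of the 35 (62.9%), against 35.4% of all genes tested. In bulk RNA, a change in the share of cells that express a gene cannot be told apart from a change in the RNA per cell.

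In siDAB2IP libraries, the genes for heme breakdown (HMOX1), the 2 subunits of the enzyme that starts glutathione synthesis (GCLC and GCLM), an NADPH-producing enzyme (ME1), a conjugate export pump (ABCC3) and the aldose reductase AKR1B1 rose. The mitochondrial superoxide dismutase SOD2 and the aldehyde reductase AKR1B10 fell. Of the 35 rows with enough counts to be tested, 8 were called at an adjusted p under 0.05 (22.9%), against 14.2% of all 15430 genes tested by edgeR. The 6 that rose were 17.1% of the rows tested (6.55% of all genes rose), and the 2 that fell were 5.71% (7.65% of all genes fell). The median log2 fold change, siDAB2IP over siControl, was 0.07 over the 35 rows and 0.01 over all genes, and 22 of the 35 values were positive. The groups did not overlap for 14 rows (40.0%), against 35.9% of all genes, with siDAB2IP above siControl in 9 and below in 5. The count of calls depended on single siControl libraries. Without replicate 2 of siControl 3 members were called (1 rose, 2 fell), without replicate 1 of siControl 5 (3 rose, 2 fell), and without replicate 3 of siControl 6 (3 rose, 3 fell). The calls over all genes dropped in the same 3 fits, from 2192 to 723, 1186 and 1048, so that this loss was not particular to the members.

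Libraries with the same replicate number deviated from their group means together, and a fit that added replicate number as a block called 21.0% of all genes. With this block 12 members were called (34.3%). The 8 genes above were among them, and the 4 added were TXNRD1 and SRXN1, higher in siDAB2IP, and AKR1C1 and AKR1C3, lower in siDAB2IP. The other 23 rows were called in neither fit. Without the block, the 27 rows not called had log2 fold changes between -0.61 and 0.66, and 20 of them lay between -0.26 and 0.25. Closest to the threshold were AKR1B1 on the inside (adjusted p = 0.0460, edgeR) and TXNRD1 on the outside (adjusted p = 0.0524). GPX2, SOD3 and the second SOD2 row were too low to test.

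**Figure D1:**
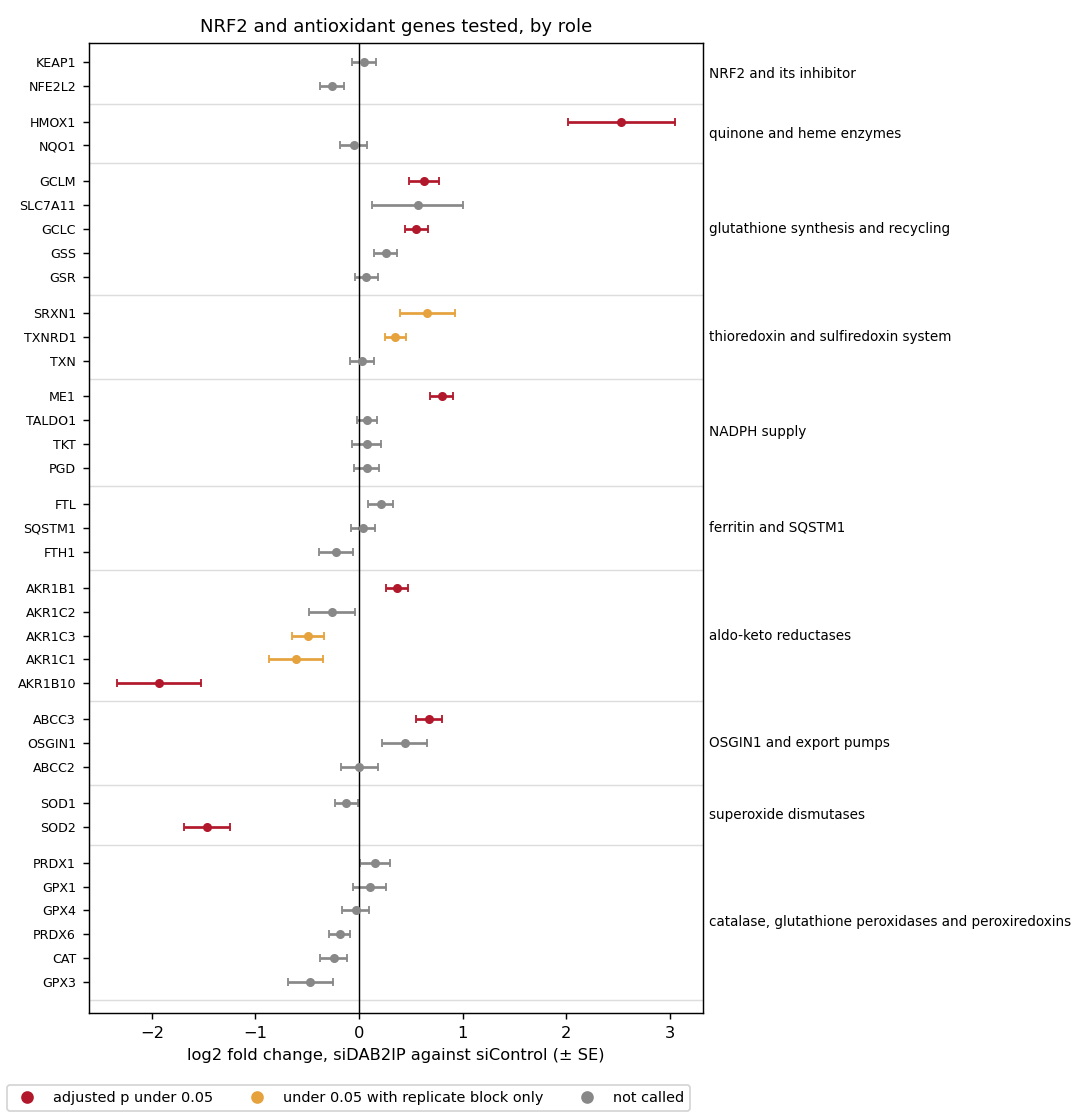
Log2 fold change of siDAB2IP over siControl (horizontal axis, log2 units; points with bars of ± 1 SE from edgeR) for the 35 NRF2 and antioxidant rows tested, grouped by role and ordered by value within a role. HMOX1 stands farthest to the right at 2.53, AKR1B10 and SOD2 stand farthest to the left at -1.93 and -1.46, and most of the other points lie near 0.

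The levels of these genes in siControl differed widely, and the called genes came from the top as well as the bottom of the order. Per length, as mean FPKM over the 3 siControl libraries, FTH1 (503 ± 79.6, SD) stood highest, followed by FTL (219 ± 7.33) and GPX1 (161 ± 21.4). PRDX6 (100.1 ± 5.31), TXN (96.8 ± 6.03), SOD2 (96.1 ± 12) and PRDX1 (90.2 ± 8.13) followed within each other's spread. ABCC3 (72.4 ± 4.63) and AKR1B1 (55.5 ± 5.48) were also abundant. GCLC (8.43 ± 0.324), ME1 (7.02 ± 0.463), AKR1B10 (5.49 ± 3.10), GCLM (2.88 ± 0.193) and HMOX1 (1.05 ± 0.102) were low. In siDAB2IP, mean FPKM was 34.8 for SOD2 and 6.08 for HMOX1.

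NRF2 and its inhibitor were not called. NFE2L2 was at 84.9, 95.9 and 86.0 CPM in replicates 1 to 3 of siControl and at 83.4, 75.3 and 63.7 CPM in those of siDAB2IP. The groups did not overlap, but replicate 1 of siDAB2IP lay just under the lowest siControl library. The log2 fold change was -0.26 ± 0.12 (SE, adjusted p = 0.158, and 0.0875 with the block). KEAP1, the adaptor that marks NRF2 for degradation, was at 53.5 ± 4.51 CPM (SD, n = 3) in siControl and 55.2 ± 6.71 CPM in siDAB2IP, with a log2 fold change of 0.04 ± 0.12 (SE). On the same strand as NFE2L2 lies AC019080.1, which shares 17.6% of the exon bases of NFE2L2 and was at 2.80 and 3.36 CPM in the groups.

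Of HMOX1 and NQO1, widely used readouts of NRF2 activity, HMOX1 rose and NQO1 was not called. HMOX1 (heme oxygenase 1, which opens the heme ring and also answers to other stress factors; chr22:35380361-35394214, plus strand) was at 2.30, 2.78 and 2.52 CPM in siControl and at 6.93, 7.85 and 29.5 CPM in siDAB2IP. Each siDAB2IP library lay above each siControl library, and replicate 3 was far above the other siDAB2IP libraries. edgeR gave a log2 fold change of 2.53 ± 0.52 (SE, adjusted p = 0.0127), and the group means differed by a fold of 5.83. Without replicate 3 of siDAB2IP it was 1.54 (adjusted p = 0.000778), and without replicate 3 of both groups 1.53. Leaving out replicate 1, 2 or 3 of siControl ended the call (adjusted p = 0.0589, 0.0540 and 0.0518), with log2 fold changes of 2.46 to 2.6. So did limma on log2(FPKM + 1), a scale that understates changes of low genes (1.55, adjusted p = 0.0580). Within the replicate numbers the log2 ratios were 1.59, 1.5 and 3.55. NQO1, a quinone reductase, was at 74.2, 75.7 and 58.7 CPM in siControl and at 69.8, 74.3 and 57.0 CPM in siDAB2IP, so that the groups overlapped. Its log2 fold change was -0.05 ± 0.13 (SE, adjusted p = 0.829).

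**Figure D2:**
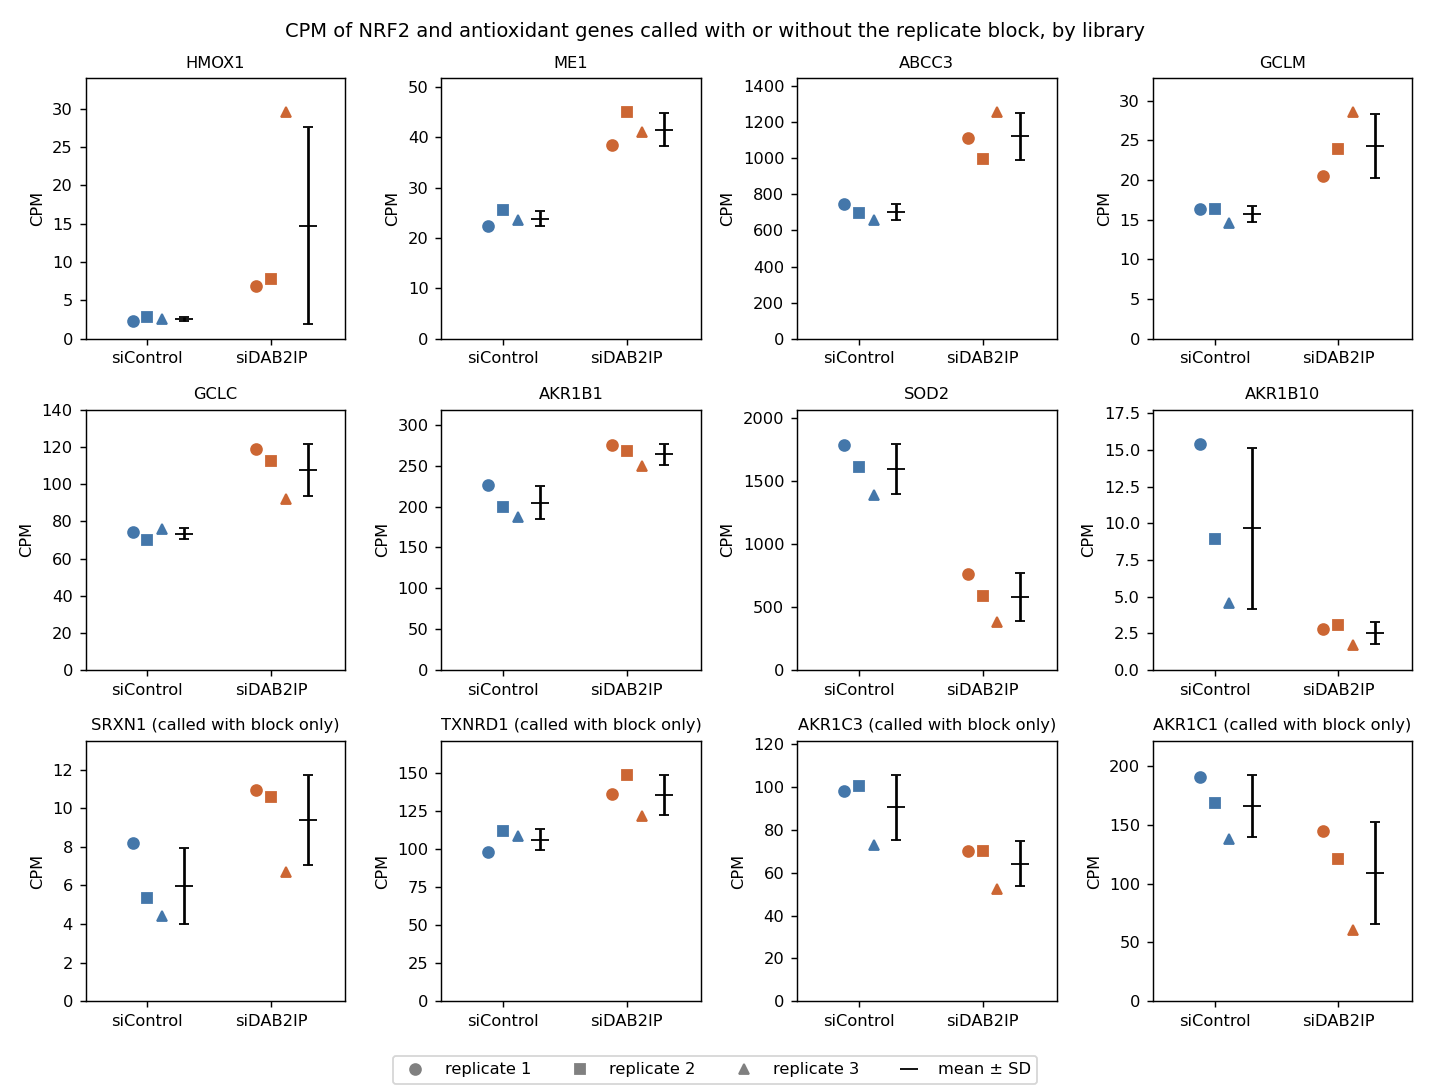
TMM-normalized CPM (vertical axes, starting at 0) of the 12 NRF2 and antioxidant genes called in the main fit or with the replicate block, by library. Blue points are the 3 siControl and orange points the 3 siDAB2IP libraries, with the mean ± SD in black. For HMOX1 the siDAB2IP mean of 14.8 ± 12.8 CPM rests on 1 library at 29.5 CPM, while ME1 shows 3 tight libraries in each group.

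Among genes of glutathione synthesis and recycling, both subunits of glutamate-cysteine ligase rose. This enzyme joins glutamate and cysteine, the rate-limiting step. GCLC, the catalytic subunit (chr6:53497341-53616970, minus strand), was at 74.2, 70.1 and 76.0 CPM in siControl and at 119, 112 and 91.9 CPM in siDAB2IP. GCLM, the modifier subunit with TGACTAAGC before its RefSeq start (chr1:93885205-93909456, minus strand), was at 16.3, 16.4 and 14.5 CPM and at 20.6, 23.9 and 28.5 CPM. On the minus strand, the range given here for GCLM begins at the last base of that element. The groups of both genes did not overlap, and replicate 3 of siDAB2IP was the lowest of its group for GCLC and the highest for GCLM. On the log2 scale the change was 0.55 ± 0.11 for GCLC (SE, adjusted p = 0.0122) and 0.63 ± 0.15 for GCLM (adjusted p = 0.0217). GCLC was not called without replicate 2 of siControl (adjusted p = 0.0689). GCLM was not called without replicate 1, 2 or 3 of siControl (adjusted p = 0.0685, 0.0847 and 0.0940), nor without replicate 3 of both groups (adjusted p = 0.0501). AL033397.1, on the strand of GCLC, shares 6.12% of its exon bases and was at 1.27 and 2.90 CPM in the groups.

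SLC7A11, the cystine importer that feeds this pathway, was at 91.5, 47.2 and 43.7 CPM in siControl and at 165, 60.0 and 44.7 CPM in siDAB2IP. Replicate 1 was the highest library in both groups. SLC7A11 had a log2 fold change of 0.57 ± 0.44 (SE, adjusted p = 0.430, and 0.0636 with the block), which was -0.21 without replicate 1 of siDAB2IP. GSS, which completes glutathione, was at 48.0 to 55.4 CPM in siControl and at 56.6 to 68.6 CPM in siDAB2IP, not called. GSR, which reduces oxidized glutathione, was at 89.7 ± 5.00 and 94.2 ± 12.7 CPM (SD, n = 3 each).

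The thioredoxin and sulfiredoxin genes held no call in the main edgeR fit, where 2 of 3 had an unadjusted p under 0.05. DESeq2 called 1. TXNRD1, the cytosolic reductase of thioredoxin (chr12:104215779-104350305, plus strand), was at 98.4, 112 and 109 CPM in siControl and at 136, 148 and 122 CPM in siDAB2IP. Each siDAB2IP library lay above the siControl libraries. The log2 fold change was 0.35 ± 0.11 (SE), with an adjusted p of 0.0524, of 0.0290 with the block, of 0.0394 in DESeq2 and of 0.0124 without replicate 3 of siDAB2IP. TXNRD1 was called in 6 of 16 alternatives. Leaving out any other single library gave an adjusted p of 0.122 to 0.171 (edgeR). SRXN1, which repairs overoxidized peroxiredoxins, was at 8.21, 5.33 and 4.40 CPM and at 10.9, 10.6 and 6.72 CPM. Its groups overlapped, although siDAB2IP was the higher library within each replicate number. The log2 fold change of SRXN1 was 0.66 ± 0.27 (SE, adjusted p = 0.126, 0.0259 with the block and 0.0270 without replicate 3 of siDAB2IP). SRXN1 was called in 4 of 16 alternatives. Of the stretches of 150 bases in its longest transcript, 84.2% also stand in AL121758.1, so that reads of the 2 genes could be split or dropped in counting, and AL121758.1 was at 0.0155 and 0.0193 CPM. TXN, thioredoxin itself, was at 111 ± 6.65 and 114 ± 15.4 CPM (SD, n = 3 each).

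Of 4 genes that supply NADPH, the electron donor for the enzymes above, ME1 rose. ME1 (cytosolic malic enzyme, with TGACTCAGC in its promoter window; chr6:83210389-83431071, minus strand) was at 22.5, 25.4 and 23.6 CPM in siControl and at 38.4, 44.9 and 40.9 CPM in siDAB2IP. The lowest siDAB2IP library was well above the highest siControl library. edgeR gave a log2 fold change of 0.80 ± 0.11 (SE, adjusted p = 0.00275), with ratios of 0.77, 0.82 and 0.80 within the replicate numbers, and ME1 was called in all 17 fits run. The oxidative pentose phosphate enzyme PGD was at 121 ± 9.06 and 127 ± 16.2 CPM (SD, n = 3 each), and the nonoxidative enzymes TALDO1 and TKT at 82.6 ± 3.44 and 87.3 ± 7.24 CPM and at 768 ± 111 and 807 ± 95.3 CPM. None of these 3 was called in edgeR or with the block.

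The aldo-keto reductases, which reduce aldehydes and ketones, were the group with calls in both directions. AKR1B1, the aldose reductase (chr7:134442350-134459284, minus strand), was at 227, 199.9 and 187 CPM in siControl and at 275, 268 and 249.7 CPM in siDAB2IP. AKR1B10, its neighbour on chromosome 7, which reduces retinal and lipid aldehydes (chr7:134527592-134541408, plus strand), was at 15.4, 8.95 and 4.57 CPM and at 2.82, 3.04 and 1.68 CPM. Neither gene's groups overlapped, and AKR1B10 spread widely within siControl. AKR1B1 had a log2 fold change of 0.37 ± 0.11 (SE, adjusted p = 0.0460) and was lost in 8 of 16 alternatives. These included the fits without replicate 1, 2 or 3 of siControl (adjusted p = 0.0516, 0.184 and 0.166) and without replicate 1 or 2 of siDAB2IP (adjusted p = 0.132 and 0.103). AKR1B10 had a log2 fold change of -1.93 ± 0.41 (SE, adjusted p = 0.0139), and its call held when any single library was left out.

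AKR1C1, AKR1C2 and AKR1C3, hydroxysteroid dehydrogenases in a cluster on chromosome 10, had lower means in siDAB2IP. AKR1C3 was at 98.1, 101 and 73.2 CPM in siControl and at 70.1, 70.4 and 52.4 CPM in siDAB2IP, without overlap. AKR1C1 was at 191, 169 and 138 CPM and at 145, 121 and 60.7 CPM, and AKR1C2 at 242, 251 and 212 CPM and at 249, 219.8 and 118 CPM, both with overlap. Replicate 3 was the lowest library of each group for these 3 genes. On the log2 scale the change was -0.49 ± 0.15 for AKR1C3 (SE, adjusted p = 0.0558, 0.00432 with the block, 0.0288 without replicate 3 of siControl). For AKR1C1 it was -0.61 ± 0.26 (SE, adjusted p = 0.148, 0.0127 with the block). AKR1C2 was called in neither fit. Of 16 alternatives, 6 called AKR1C3 and 3 called AKR1C1. Leaving out any other single library gave an adjusted p of 0.0704 to 0.179 for AKR1C3 (edgeR). The transcripts share sequence, since 11.3% of the 150-base stretches of AKR1C1, 21.2% of those of AKR1C2 and 1.33% of those of AKR1C3 recur in another gene of the cluster. Summed over the 3 genes, the level was 492 ± 59.6 CPM in siControl and 369 ± 122 CPM in siDAB2IP (SD, n = 3 each, two-sided exact permutation p = 0.2). The permutation ignores replicate numbers, within which the sum was lower in siDAB2IP each time (532 and 464, 520 and 411, 423 and 231 CPM). The smallest p that 3 libraries against 3 allow in this test is 0.1.

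**Figure D3:**
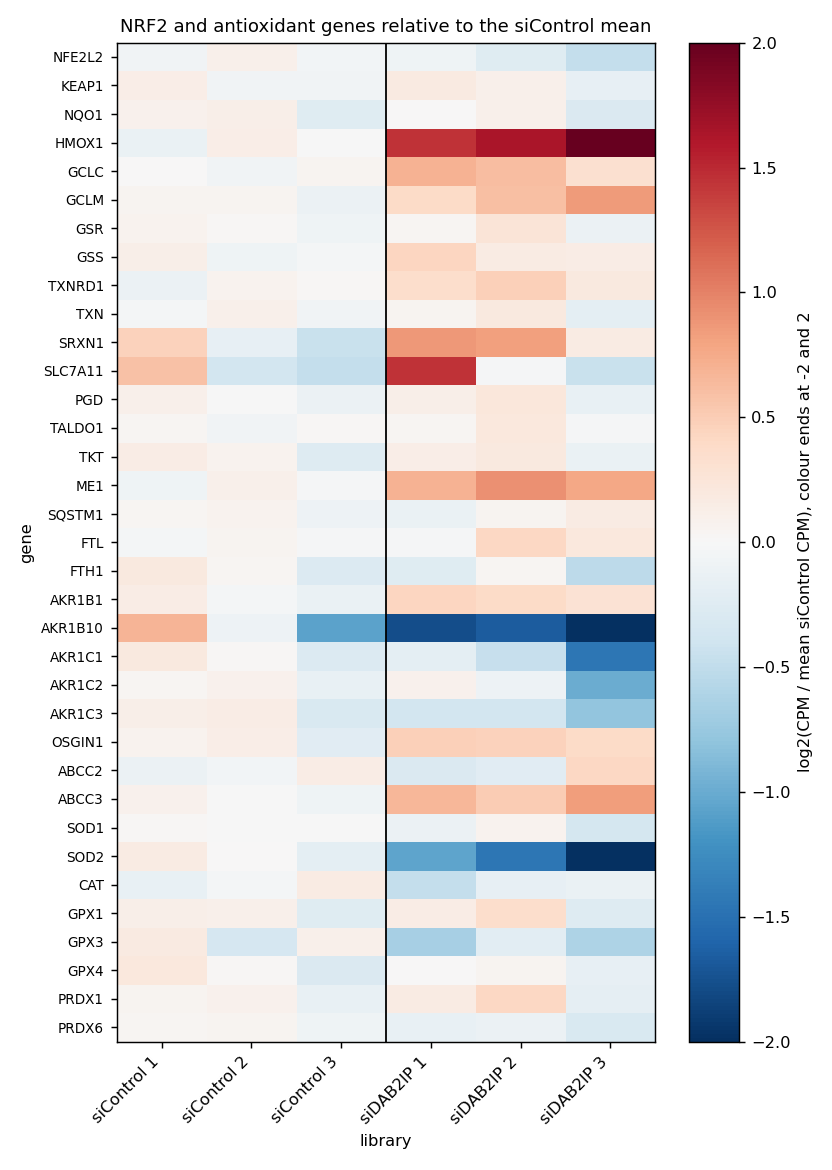
Colour gives the log2 ratio of CPM to the siControl mean for the 35 rows tested (rows) in each of the 6 libraries (columns). The colour range ends at -2 and 2, which HMOX1, AKR1B10 and SOD2 pass in replicate 3 of siDAB2IP. The column of siDAB2IP replicate 3 is the bluest, being the lowest of its group for 26 rows, while HMOX1, GCLM and ABCC3 are at their highest there.

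Among OSGIN1 and the export pumps, ABCC3 rose. ABCC3 (MRP3, which exports glutathione and glucuronide conjugates; chr17:50634777-50692252, plus strand) was at 748, 697 and 658 CPM in siControl and at 1114, 994 and 1254 CPM in siDAB2IP. The groups lay far apart. The log2 fold change was 0.68 ± 0.12 (SE, adjusted p = 0.00799), and the call was lost without replicate 2 of siControl (adjusted p = 0.0530). ABCC2, the related pump of the apical membrane, was at 107, 112 and 128 CPM and at 94.1, 98.9 and 154 CPM, with overlap. OSGIN1, an oxidative stress-induced growth inhibitor, was at 2.34 to 3.01 CPM in siControl and at 3.59 to 3.83 CPM in siDAB2IP, without overlap, and was not called (adjusted p = 0.205). Of its 150-base stretches, 5.35% recur in AC009119.2, which was at 0.0854 and 0.0939 CPM.

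Ferritin and SQSTM1, the autophagy adaptor that binds KEAP1, held no call, no unadjusted p under 0.05 in edgeR and no call in DESeq2. FTH1, the ferroxidase subunit of the iron store, was at 1029 ± 163 CPM in siControl and 882 ± 169 CPM in siDAB2IP (SD, n = 3 each). FTL, the light subunit, was at 194 ± 5.98 and 225 ± 33.7 CPM. SQSTM1 was at 412 ± 26.1 and 422 ± 42.3 CPM. With their pseudogenes added, FTH1 reached 1036 ± 164 and 887 ± 170 CPM (two-sided exact permutation p = 0.4) and FTL 195 ± 5.96 and 225 ± 34.0 CPM (p = 0.3 in the same exact test). FTH1 itself held 99.4% and FTL 99.7% of these counts. BEST1, on the opposite strand, covers 62.4% of the exon bases of FTH1 and was at 1.17 and 1.37 CPM.

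SOD2 fell from a high level. SOD2, the manganese superoxide dismutase of the mitochondrial matrix and a known NF-κB target (chr6:159669057-159745186, minus strand), was at 1788, 1611 and 1390.1 CPM in siControl and at 765, 587 and 385 CPM in siDAB2IP. The highest siDAB2IP library was well below the lowest siControl library, and replicate 3 was the lowest library of both groups. The log2 fold change was -1.46 ± 0.22 (SE, adjusted p = 0.00369, and 0.000339 with the block). The ratios within the replicate numbers were -1.23, -1.46 and -1.85 on the log2 scale, and the call held when any single library was left out. WTAP, which lies on the opposite strand and overlaps 1.81% of the exon bases of SOD2, also fell (110 ± 5.24 to 62.0 ± 9.34 CPM, adjusted p = 0.00298), and without strand in the counting the shared reads cannot be told apart. The second SOD2 row (ENSG00000285441), which shares 5.12% of the exon bases of SOD2 on the same strand, was at 0.0350 CPM in siControl and at 0 in siDAB2IP. The shared bases are 33.0% of the exon bases of this second row.

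SOD1, the cytosolic enzyme, was at 88.1 ± 1.51 and 80.9 ± 11.8 CPM (SD, n = 3 each) and was not called. SOD3, the secreted enzyme, had a count of 0 in each library. Catalase, glutathione peroxidases and peroxiredoxins held no call among 6 tested rows, no unadjusted p under 0.05 in edgeR and no call in DESeq2. CAT, the peroxisomal catalase, was at 36.7 ± 4.15 and 30.9 ± 3.84 CPM. PRDX6, a peroxiredoxin that also acts on phospholipids, was at 224 to 247 CPM and 192 to 219.9 CPM without overlap (adjusted p = 0.245). GPX1, the cytosolic glutathione peroxidase, was at 232 ± 30.7 and 249 ± 51.3 CPM, and GPX4, which reduces lipid peroxides, at 101 ± 17.4 and 99.0 ± 7.94 CPM. GPX3, the secreted form, was at 6.75 ± 1.24 and 4.85 ± 0.880 CPM, and PRDX1, the abundant cytosolic peroxiredoxin, at 138 ± 12.3 and 154 ± 31.2 CPM. GPX2, the epithelial form, was at 0.250 ± 0.162 and 0.301 ± 0.0270 CPM, against 0.137 to 0.183 CPM for 3 counts.

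Further genes of NRF2 and redox biology were followed in 4 lists of 90 genes, of which 78 were tested. Of these, 11 rose and 8 fell (24.4% called), against 14.2% of all genes called (6.55% rose and 7.65% fell), and the median log2 fold change was 0.06. With the block, which called 21.0% of all genes, 14 rose and 10 fell. Members and lists were chosen with earlier results of these data known, so their shares of calls only describe these genes and were not tested.

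Of 16 regulators and partners of NRF2, 2 rose and 4 fell (37.5% called, against 14.2% of all genes), and the median log2 fold change was -0.05. MAFG, a small MAF protein that pairs with NRF2 on DNA, was at 72.6, 65.5 and 68.5 CPM in siControl and at 96.4, 95.2 and 97.4 CPM in siDAB2IP (log2 fold change 0.48 ± 0.09, SE, adjusted p = 0.00784). DPP3, a peptidase that binds KEAP1, rose from 60.8 ± 2.35 to 79.5 ± 2.87 CPM (SD, n = 3 each, adjusted p = 0.0198). BTRC and GSK3B, which act in a KEAP1-independent route of NRF2 degradation, fell. GSK3B, the kinase that marks NRF2 for this route, was at 82.5, 72.6 and 72.8 CPM and at 52.4, 52.1 and 47.5 CPM (log2 fold change -0.58 ± 0.10, SE, adjusted p = 0.00541). BTRC, the ligase adaptor that reads the mark, was at 18.1, 18.3 and 18.1 CPM and at 10.5, 12.3 and 8.74 CPM (log2 fold change -0.79 ± 0.15, SE, adjusted p = 0.00998). For these genes the groups did not overlap. BACH1, a repressor that competes with NRF2 for its element and is known to hold HMOX1 down, fell from 37.6 ± 4.20 to 27.4 ± 1.72 CPM (SD, adjusted p = 0.0328). PGAM5, a mitochondrial phosphatase that binds KEAP1, fell from 56.3 ± 1.32 to 37.8 ± 8.71 CPM (adjusted p = 0.0346). With 1 library dropped, BACH1 lost its call in 4 of 6 fits (highest adjusted p = 0.110, edgeR) and PGAM5 in 4 (0.104). The call of DPP3 was lost in 3 (0.118) and that of MAFG in 1 (0.0623). SIRT7 shares 2.01% of the exon bases of MAFG on the same strand and was at 66.4 and 90.5 CPM.

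Of 26 further NRF2 target genes that could be tested out of 30, 6 rose and 1 fell (26.9% called, against 14.2% of all genes), with a median log2 fold change of 0.11. SLC48A1, a heme transporter, was at 16.9, 17.2 and 18.1 CPM in siControl and at 28.3, 29.3 and 34.8 CPM in siDAB2IP (log2 fold change 0.82 ± 0.13, SE, adjusted p = 0.00372). Each siDAB2IP library exceeded the siControl libraries. TRIM16L rose from 14.3 ± 1.04 to 25 ± 2.54 CPM (SD, adjusted p = 0.00511). The pump ABCC5 rose from 134 ± 6.88 to 217 ± 39.3 CPM (adjusted p = 0.00873), HTATIP2 from 45.3 ± 4.56 to 64.3 ± 9.02 CPM (adjusted p = 0.0283) and PIR from 17.8 ± 1.47 to 25.9 ± 4.03 CPM (adjusted p = 0.0351). UGDH, which makes UDP-glucuronate, fell from 14.1 ± 1.33 to 5.96 ± 2.01 CPM (log2 fold change -1.25 ± 0.24, SE, adjusted p = 0.00946). With the block BLVRB, a biliverdin reductase, was also called (19.3 ± 4.49 and 28.1 ± 2.31 CPM, adjusted p = 0.0581, 0.0408 with the block and 0.0258 in DESeq2). SLC3A2, the partner chain of SLC7A11, was at 734 ± 106 and 481 ± 183 CPM (adjusted p = 0.114, 0.00948 with the block and 0.0281 in DESeq2). RAPGEF3, on the opposite strand, overlaps 1.69% of the exon bases of SLC48A1 and was at 19.3 and 76.1 CPM.

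Among 26 further antioxidant enzymes tested out of 27, 1 rose and 3 fell, with a median log2 fold change of 0.01. The share called, 15.4%, was near the 14.2% of all genes. PRDX5, a peroxiredoxin found in several organelles, rose from 94.1 ± 21.1 to 144 ± 17.5 CPM (SD, n = 3 each, adjusted p = 0.0320). GLRX, the cytosolic glutaredoxin, fell from 28.7 ± 4.10 to 17.8 ± 2.25 CPM (adjusted p = 0.0165). SESN3, a sestrin, fell from 10.1 ± 0.347 to 6.18 ± 1.11 CPM (adjusted p = 0.0285), and NNT, the mitochondrial NADPH transhydrogenase, from 148 ± 30.1 to 99.2 ± 12.9 CPM (adjusted p = 0.0361). With the block TXNRD2, the mitochondrial thioredoxin reductase, was called higher (34.4 ± 2.85 and 43.3 ± 1.21 CPM, adjusted p = 0.0588, 0.0429 with the block). GPX8 was called lower with it (48.6 ± 1.87 and 34.5 ± 9.78 CPM, adjusted p = 0.0988, 0.0388 with the block).

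Oxidant-producing enzymes numbered 17, and the 7 not tested (CYBB, DUOXA2, NCF4, NOX1, NOX3, NOX4 and NOXO1) had group means of 0.529 CPM or less. Of the 10 tested, 2 rose and 0 fell (edgeR, where 6.55% of all genes rose and 7.65% fell), with 0 at an unadjusted p under 0.05 and a lower level and 0 called lower by DESeq2, and the median log2 fold change was 0.45. XDH, xanthine dehydrogenase, was at 28.1, 26.7 and 29.7 CPM in siControl and at 48.2, 44.3 and 53.1 CPM in siDAB2IP (log2 fold change 0.79 ± 0.11, SE, adjusted p = 0.00269). AOX1, aldehyde oxidase, was at 41.8, 42.5 and 31.0 CPM and at 72.4, 70.3 and 79.7 CPM (log2 fold change 0.95 ± 0.13, SE, adjusted p = 0.00258). Both are molybdenum enzymes that can release superoxide and hydrogen peroxide, and neither gene's groups overlapped. DUOX1, a peroxide-producing oxidase of epithelia, was at 84.6 ± 13.9 and 121 ± 33.3 CPM (SD, adjusted p = 0.0880, 0.00779 with the block and 0.0354 in DESeq2).

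When single libraries were left out, 8 of the 19 called genes of these lists held throughout, among them BTRC, GSK3B, SLC48A1, TRIM16L, UGDH, AOX1 and XDH. The other 11 (BACH1, DPP3, MAFG, PGAM5, ABCC5, HTATIP2, PIR, GLRX, NNT, PRDX5 and SESN3) lost the call in at least 1 of 6 fits. Their highest adjusted p lay between 0.0529 (ABCC5) and 0.124 (PIR), reached without replicate 2 of siControl in 10 of them and without replicate 1 of siControl in HTATIP2 (0.116).

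**Figure D4:**
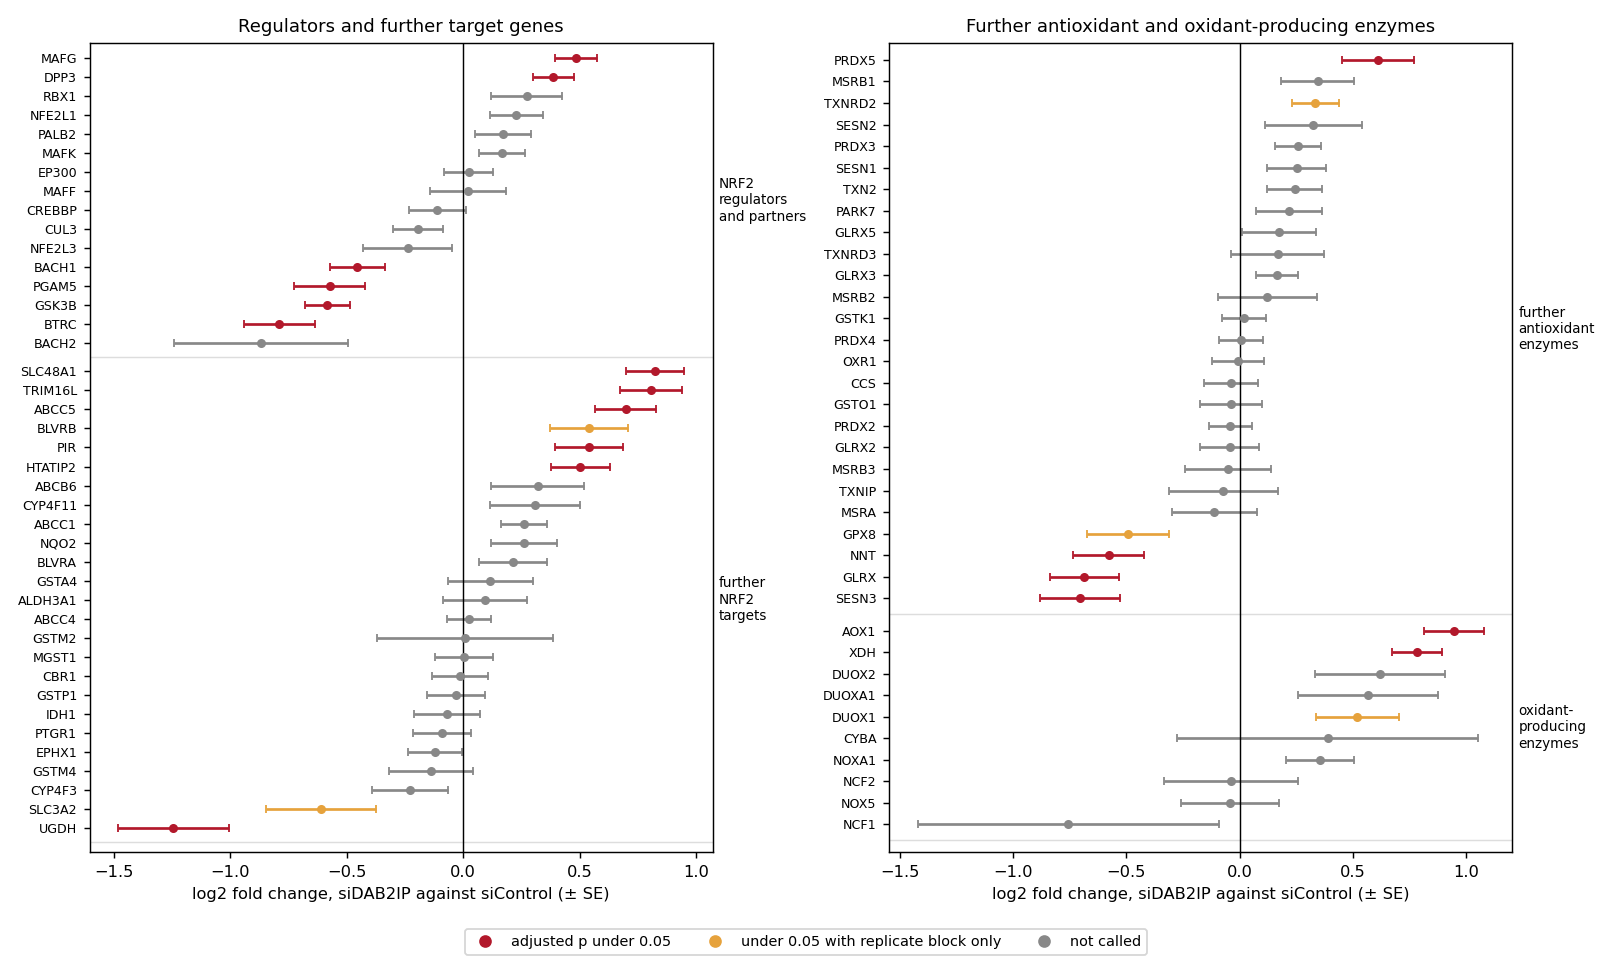
Log2 fold change of siDAB2IP over siControl (horizontal axes, log2 units; points with bars of ± 1 SE from edgeR) for 77 of the 78 tested genes of the 4 further lists. Of the regulators, MAFG stands at 0.48 and BTRC at -0.79, and of the oxidant-producing enzymes AOX1 and XDH stand at 0.95 and 0.79.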

How the data were processed

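RNA-Seq was performed on 6 MCF10A libraries, sequenced by Novogene. The submitters' processing notes name STAR 2.6.1d, featureCounts 1.5.0-p3, DESeq2 1.20.0, edgeR 3.24.3 and hg38, without roles, and strand use in counting is not given in the sources used here. The authors deposited whole-number counts per gene and library without normalization, and FPKM values, which they scaled by gene length and library total. The 58735 rows have GENCODE 29 positions. Depth was 16353783 to 21916062 counts, and the limit of 3 counts allows for counting error alone.

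Tests used edgeR 4.0.16 under R 4.3.3 (filterByExpr, TMM, glmQLFit and glmQLFTest, with group as the only term) and Benjamini-Hochberg adjustment over 15430 genes, and calls had an adjusted p under 0.05. CPM values are TMM-scaled. SEs were derived from the F statistic. The code was tested on simulated data. Alternatives were DESeq2 1.42.0, other scalings and filters, limma 3.58.1 on log2(FPKM + 1) or log2(FPKM + 0.1), a threshold of 0.01, leaving out each library and a replicate block. Same-numbered libraries deviated together (r = 0.26, 0.15 and 0.25 across genes, against -0.28 to 0.02 for other pairs), and the numbers come from the labels. They were therefore used as pairs in the replicate block. The main fit, the other alternatives and the permutation tests did not use the pairing. Leaving out replicate 3 of both groups was chosen after seeing the data.

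Members and lists were chosen with earlier results of these data known. Named were DAB2IP, all 37 members, the called genes of each list, genes overlapping them and cell type markers. The genes called with the block and not in the main fit were named after their values were seen. Of the called genes of the further lists, 1 is counted but not reported here by name.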

Additional observations from a re-analysis of the deposited data

How the results depend on the processing

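The 28 genes called and followed singly (DAB2IP, 8 members and 19 of the further lists) kept their direction in all of the 446 values under alternatives and their call in 364, and 8 of them were called in every fit. With limma on log2(FPKM + 1) without a filter, 378 of all genes, 1 member (ME1, rose, and 0 fell), and 7 rising and 1 falling gene of the further lists were called. With a pseudocount of 0.1 and a filter limma called 1417 of all genes, and 4 genes of the further lists fell, as with a pseudocount of 1. At an adjusted p under 0.01, 622 of all genes, 3 members (2 rose, 1 fell), and 7 rising and 3 falling genes of the further lists were called. Leaving out each library in turn gave 723 to 2524 of all genes, 3 to 10 members, 1 to 8 members that rose and 2 to 3 that fell, and 5 to 13 rising and 3 to 8 falling genes of the further lists, with the lowest counts without siControl replicate 2 and the highest of members without siDAB2IP replicate 3. The number of members that fell was 4 with no filter on low counts, 4 with the replicate block and 4 without replicate 3 of both groups, and 3 in DESeq2. With the replicate block 3233 of all genes were called against 2192 without it, 12 members against 8, and no member's call was lost. No scaling moved the median of all genes by more than 0.1 on the log2 scale. SLC7A11, NQO1 and KEAP1, which were not called, changed sign when 1 library was left out. The range was -0.21 to 0.96 for SLC7A11 (below 0 without siDAB2IP replicate 1), -0.18 to 0.051 for NQO1 (above 0 without siDAB2IP replicate 3) and -0.026 to 0.14 for KEAP1 (below 0 without siControl replicate 2 or 3 or siDAB2IP replicate 1). Within replicate numbers 1 to 3, the log2 ratios were 0.85, 0.35 and 0.04 for SLC7A11 and -0.09, -0.03 and -0.04 for NQO1. Those of KEAP1 were 0.04, 0.18 and -0.10. The cause of the sign changes was not tested. For GPX2, SOD3 and the second SOD2 row no change could be detected at these counts. Why these counts were low was not tested.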
